A study of Oncorhynchus mykiss with 9 samples.

Results

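The transcriptome of splenic IgM+ B cells that had received no antigen was described from 3 libraries, out of 9 in the whole series. They are the libraries of the unstimulated control and were chosen by that label alone. The other 6 libraries come from cells cultured with antigen and were not used. The donors were healthy female rainbow trout of 50 to 70 g, and no strain, genotype or mutation is given for them. Spleen leukocytes were kept for 24 h in culture without antigen, and IgM+ cells were then sorted from them, so the B cells spent the culture together with other spleen cells. The study calls the 3 libraries biological replicates, and nothing states that each came from a different fish, so the spread between them may be technical. They are called library 1, 2 and 3 below, and their numbers carry no order.

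B cells carry immunoglobulin on their surface as part of the B cell receptor, in which the antigen-binding immunoglobulin is held by the signalling chains CD79A and CD79B. Antigen binding starts a kinase cascade, and a B cell can also take antigen up, present it on MHC class II and receive help from T cells through CD40. In teleost fish, IgM is the main systemic antibody, fish IgM+ B cells are known to phagocytose particles, and the spleen is one of the organs where such cells are found. A resting B cell is small and divides little, and on activation it can turn into an antibody-secreting plasma cell.

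The files give raw read counts for 46585 genes, and these summed to 9237306 counts in library 1, 9228595 in library 2 and 12164154 in library 3. Levels are given in CPM, the counts of a gene scaled to the total of its library, on a scale where 10000 CPM is 1% of the counts. Gene lengths were not used here, and a long gene collects more reads than a short gene with as many transcripts. Ranks in CPM are therefore ranks of read share and not of transcript number. The smallest level that 3 counts give was 0.325 CPM in library 1, 0.325 CPM in library 2 and 0.247 CPM in library 3. Shares of counts had 95% Wilson intervals of at most ±0.0251 percentage points, which cover counting error only. With 1 group of 3 samples no contrast can be tested, so values are given per library or as mean ± SD (n = 3) and carry no p-value.

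A gene was called detected when it had at least 1 CPM in each of the 3 libraries. This held for 21557 of the 46585 genes (46.3%), of which 19896 carry a description. Their median level was 12.7 CPM. No count was found in any of the 3 libraries for 11742 genes (25.2%). A mean of at least 100 CPM was reached by 1329 genes and a mean of at least 1000 CPM by 149 genes. A gene under 1 CPM in any library fails the rule for detection, however high it is in another. The counts of detected genes below leave such genes out. A gene that is high in only 1 library is kept where it has at least 1 CPM in the others.

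The 3 libraries stood apart from each other in a few defined groups of genes, and this bears on several of the results. Library 1 was the highest in genes of the antiviral interferon response and the lowest in immediate early genes. Library 2 held far more hemoglobin reads than the others. Library 3 had the fewest reads of immunoglobulin light chains and of plasma cell genes. Each of these patterns is described below with its values, and means that rest on a single library are given with and without it. In cells measured in bulk, fewer cells of a type and less RNA per cell cannot be told apart.

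The reads were spread over many genes. The gene with most counts took 4.19% ± 2.20 of all counts, and the 10 genes with most counts took 8.16% ± 2.53. The top 100 genes held 26.0% ± 2.70 and the top 1000 held 57.2% ± 1.41 (mean ± SD, n = 3). Of the 100 genes with most counts, 98 have a description, and 71 genes were among the top 100 in all 3 libraries. Only 5 genes were among the top 10 in every library.

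First in all 3 libraries was heat shock protein 70b (GSONMG00064818001), an inducible chaperone that refolds damaged proteins. It had 20998, 39814 and 64913 CPM in libraries 1, 2 and 3, which was 2.10%, 3.98% and 6.49% of their counts. Without library 3 its mean share was 3.04%. The constitutive heat shock cognate 70 kDa protein (GSONMG00018145001), at rank 6, had 3901, 3764 and 4327 CPM and thus stayed within a narrow range. HSP90 beta (GSONMG00028101001), at rank 3, had 5297, 4772 and 6322 CPM. The HSP 90-alpha-like gene (GSONMG00080903001), at rank 9, had 1990.3 CPM in library 1 against 4901 and 4184 CPM in libraries 2 and 3. The chaperones at high rank therefore differed in how steady they were, with the hsp70b and HSP 90-alpha-like genes as the uneven members.

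Most other genes at the top belonged to protein synthesis. Ranks 2 and 4 were held by 2 genes for elongation factor 1-alpha (GSONMG00049489001 and GSONMG00072635001), which brings charged tRNA to the ribosome, with 6661 ± 1333 and 4457 ± 673 CPM. Elongation factor 2 (GSONMG00053690001), which moves the ribosome along the mRNA, had 4358 ± 1063 CPM at rank 5. Ribosomal proteins made up 9 of the 20 described genes with most counts, namely L7, L12, S3a, S3-like, L4-B, P0-like, S2-like, L13a and L18a. Their spread was small in the case of S3-like (GSONMG00054331001), with 3216 ± 138 CPM, and of L18a (GSONMG00041640001), with 2765 ± 85.8 CPM. A glycine-rich RNA-binding protein of the GRP1A type (GSONMG00036388001) had 3422 ± 219.9 CPM.

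A further 3 of the 20 genes had wide ranges. Transcription factor AP-1 (GSONMG00081321001), the Jun component of a factor that responds early to stimuli, had 879 CPM in library 1 against 4929 and 4456 CPM in libraries 2 and 3. The P2X purinoceptor 5-like gene (GSONMG00068641001), an ion channel opened by extracellular ATP, had 1409.5, 4716 and 2395 CPM. The protein phosphatase 1 regulatory subunit 15B-like gene (GSONMG00081642001), which directs the removal of phosphate from a translation initiation factor after stress, had 1331, 4139.9 and 2841 CPM. In all 3 genes library 1 was the lowest and library 2 the highest.

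**Figure D1:**
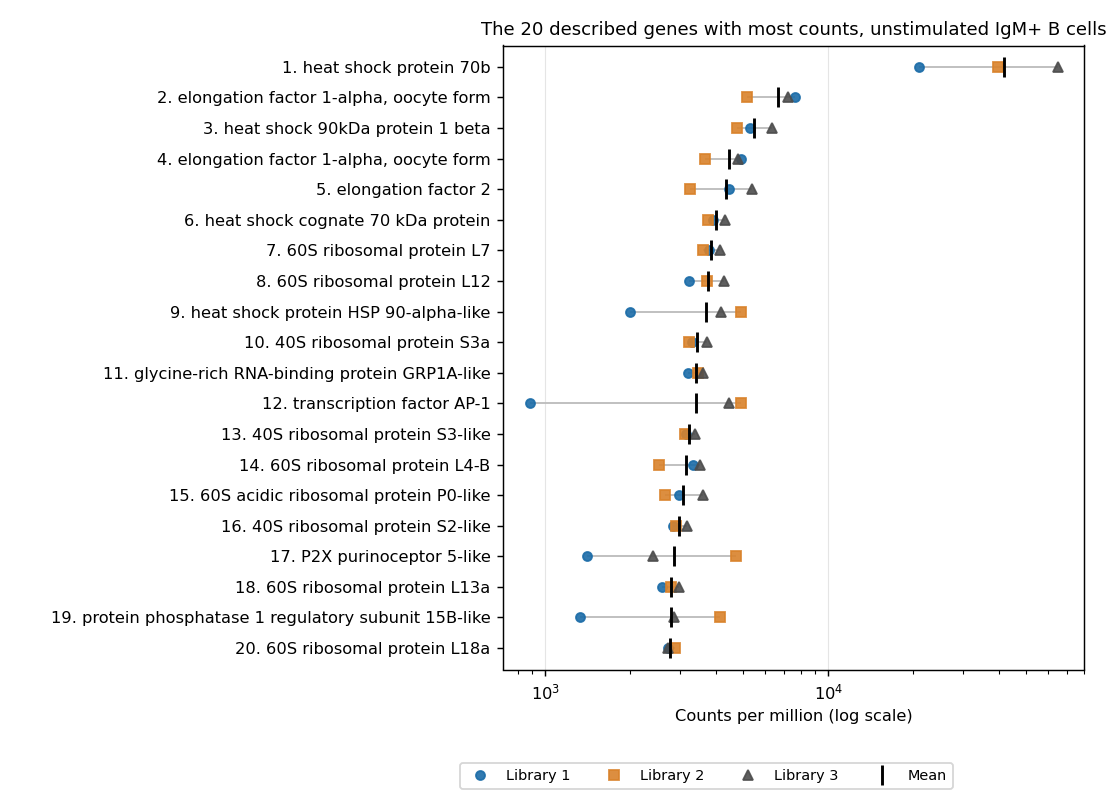
CPM (log axis) of the 20 described genes with the highest mean, in unstimulated IgM+ B cells, with 1 point per library, the mean as a vertical tick and a grey line over the range; numbers are ranks by mean. Heat shock protein 70b spans 20998 to 64913 CPM, and the AP-1 gene lies at 879 CPM in library 1 and at 4929 and 4456 CPM in libraries 2 and 3, while most ribosomal protein genes have their 3 points close together.

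Gene groups were formed by words in the protein descriptions, and most are given below by the number of genes in the table, the number detected (46.3% over all genes) and the share of counts, and some also by the median level of the detected members (12.7 CPM over all detected genes). The share is summed over all genes of a group whether detected or not. The 181 genes for cytosolic ribosomal proteins took the largest share, 18.6% in library 1, 18.6% in library 2 and 20.5% in library 3. Of these genes 180 were detected, with a median of 844 CPM. Translation factors, with 150 of 171 genes detected, held 3.84%, 2.90% and 3.81%. Heat shock proteins and chaperones, with 154 of 205 detected, held 4.57%, 6.72% and 9.86%, and the median of their detected members was 24.5 CPM, so a few genes carried the sum. 

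**Figure D2:**
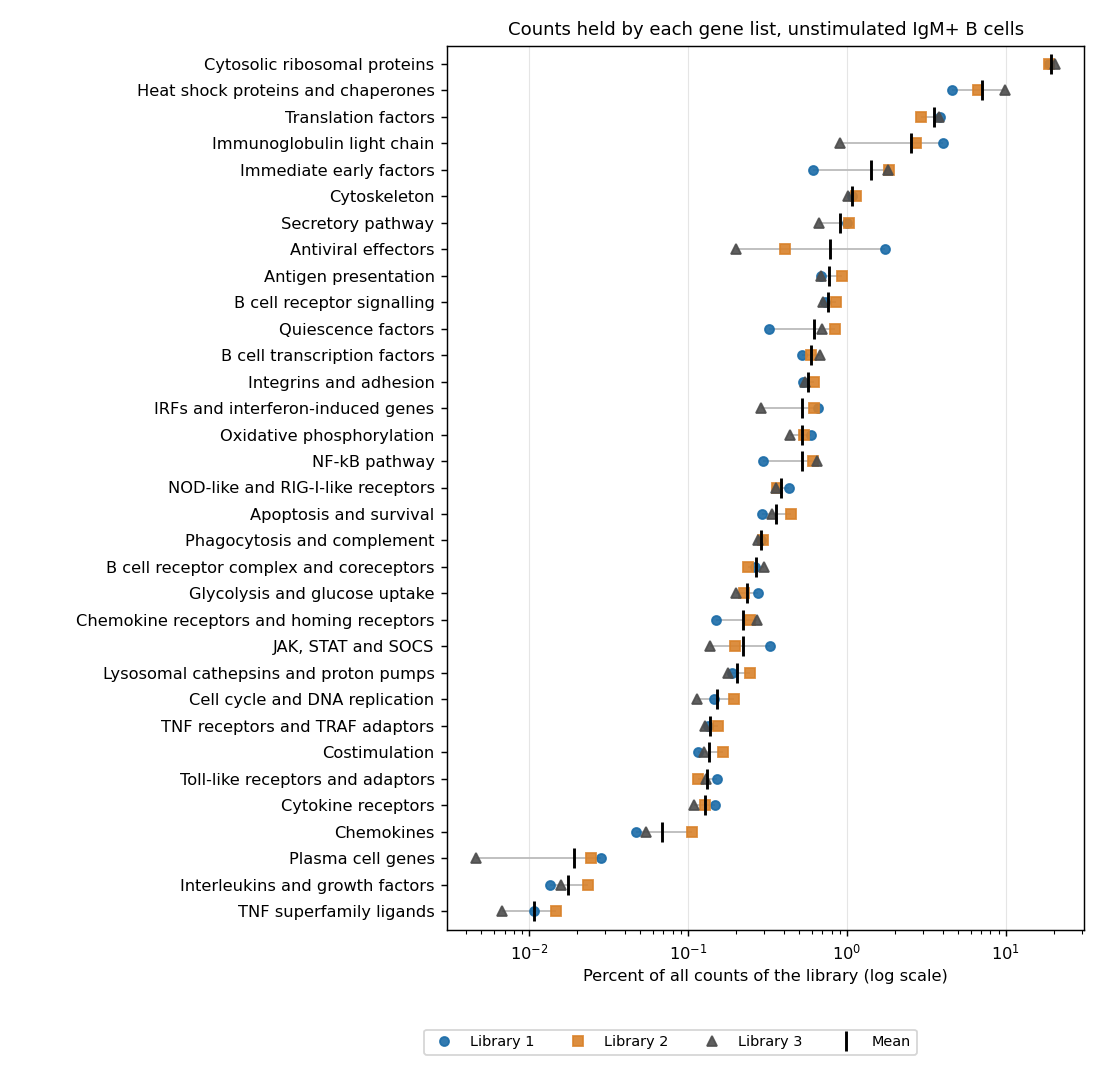
Percent of all counts of a library (log axis) held by each group of genes, with 1 point per library, the mean as a vertical tick and a grey line over the range, groups ordered by mean. Ribosomal proteins take 18.6 to 20.5%, and groups with wide ranges are the plasma cell genes (0.00464 to 0.0284%), the antiviral effectors (0.199 to 1.73%) and the immunoglobulin light chains (0.901 to 4.0%).

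Genes that define a B cell were detected in all 3 libraries. The first of the CD79A-like genes (GSONMG00053375001) had 513, 666 and 689 CPM in libraries 1, 2 and 3, at rank 225 of all genes. The second (GSONMG00019605001) had 229, 262 and 266 CPM, and CD79B (GSONMG00069455001) had 165, 151 and 199 CPM. The tetraspanin CD37 (GSONMG00078587001) had 521, 529 and 699 CPM. A CD22-like gene (GSONMG00082399001), a member of the family of inhibitory coreceptors that bind sialic acid, had 477, 235 and 392 CPM, with library 2 the lowest. Altogether 37 genes have descriptions that contain the letters CD22, and 16 of them were detected. The 37 include GSONMG00062551001 and GSONMG00033958001, which are described as CD226 antigen and not as CD22. Neither was detected, and both are also counted among the genes of the groups in the next paragraph. CD79B and some genes named further below lie outside the 4 genes with most counts of their group and are named for their role. No gene matched the words used for Pax5, and its transcript was not analysed here.

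As a whole, the receptor complex and coreceptors held 0.267% ± 0.032 of counts, with 24 of 59 genes detected at a median of 30.2 CPM. The median CV of these 24 over the libraries was 0.378, against 0.257 for all detected genes, so the group varied more than the detected genes at large. Of these 24, 19 were highest in library 3, where 35.8% of all detected genes were highest. CD22-like genes made up 16 of the 24 and most of the 19, so the count rests mainly on a single family. The CD22-like gene with most counts (GSONMG00082399001) was highest in library 1. The list of IgM B cell markers, which pools receptor and signalling genes, held 0.436%, 0.493% and 0.477% of counts, with 30 of 56 genes detected.

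The signalling chain below the receptor was well represented. The adaptor BLNK, which links the receptor's kinases to downstream enzymes, was represented by a pair of genes with most counts in the group. One (GSONMG00078045001) had 1014, 1069.7 and 1130.3 CPM and the other (GSONMG00078046001) 745, 1098 and 771 CPM. The kinase BTK (GSONMG00017181001), which activates phospholipase C, had 422, 474 and 331 CPM. Of the 92 genes of this group 77 were detected, at a median of 34.1 CPM, and 1 of them (1.30%) differed by at least 4 times between its highest and lowest library, where 6.63% of all detected genes did. Their summed share was 0.73%, 0.852% and 0.704%.

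Among transcription factors of B cells, 86 of 113 genes were detected and the group held 0.598% ± 0.0775 of counts. The coactivator POU2AF1 (GSONMG00031682001), which works with octamer factors at immunoglobulin promoters, was the steadiest of those named here with 254, 234 and 251 CPM. The NF-kB subunit c-Rel (GSONMG00041779001) had 488, 539 and 890.2 CPM. IRF4 (GSONMG00065333001), a factor of activated B cells and plasma cells, had 298, 697 and 679 CPM, and IRF8 (GSONMG00056441001), a factor of B cells and myeloid cells, had 335, 539.5 and 159 CPM. RelB (GSONMG00004801001) had 99.6, 337 and 479.9 CPM. BCL6 (GSONMG00053887001), which in mammals governs germinal centre B cells, had 156, 194 and 388 CPM, and PU.1 (GSONMG00072048001), which B cells share with myeloid cells, had 92.3, 161 and 165 CPM. Of the 86 detected factors, 44 were highest in library 3 (35.8% of all detected genes) and 43 lowest in library 2 (40.5%).

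**Figure D3:**
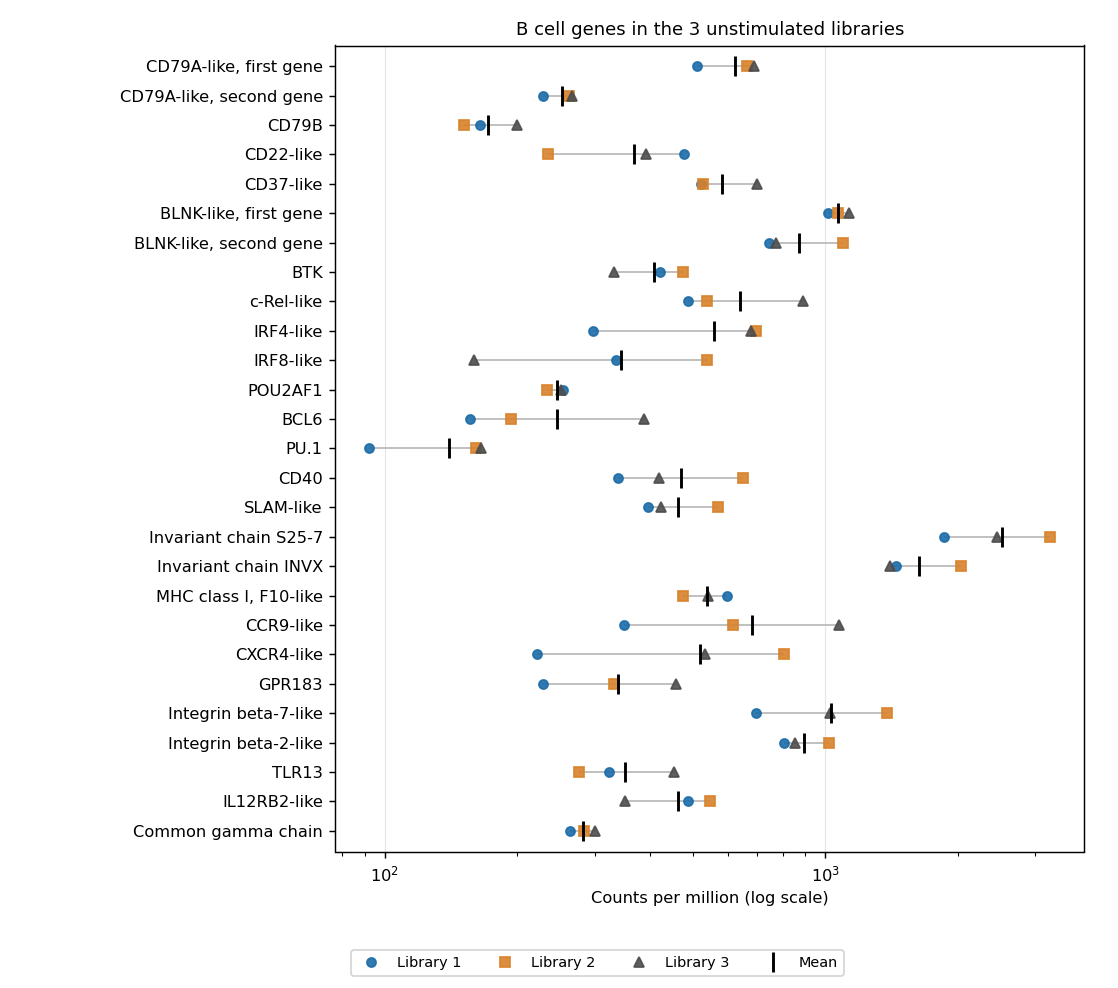
CPM (log axis) of genes of B cell function in the 3 unstimulated libraries, with 1 point per library, the mean as a vertical tick and a grey line over the range. The CD79A genes, the first BLNK gene, POU2AF1 and the common gamma chain lie within narrow ranges, while the IRF8-like gene spans 159 to 539.5 CPM and the CXCR4-like gene 221 to 806 CPM.

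Immunoglobulin light chains were the B cell products with the largest share of counts. The table holds 60 such genes, 55 of them detected at a median of 202 CPM. Together they took 4.0% of counts in library 1, 2.73% in library 2 and 0.901% in library 3, or 2.54% ± 1.56. Without library 3 the mean was 3.37%. The lambda-like gene with most counts (GSONMG00017581001) had 4198 and 3586 CPM in libraries 1 and 2 against 490.0 CPM in library 3. The next 3 genes, also lambda-like (GSONMG00032908001, GSONMG00039285001 and GSONMG00043518001), had 3086, 2095 and 718 CPM, then 3900.2, 1615 and 320.1 CPM, then 3174, 1972 and 492 CPM in libraries 1, 2 and 3. Of the 55 detected genes 53 were lowest in library 3, where 31% of all detected genes were lowest, and 32 differed by at least 4 times, against 6.63% of all detected genes. Light chain genes are alike in sequence, and reads of one can be counted for another, so single genes are uncertain and the sum is firmer.

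For heavy chains, 2 genes are described as Ig mu heavy chain disease protein-like. The first (GSONMG00048099001) had 6.50, 13.8 and 7.23 CPM and the second (GSONMG00047420001) was under the limit for detection. The level of IgM heavy chain mRNA, the product by which the cells were sorted, was not analysed here beyond these genes, and the words for IgT matched 0 genes.

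Of 12 genes of plasma cells 5 were detected, at a median of 16.0 CPM. Of these 5, 4 were lowest in library 3, against 31% of all detected genes. These 4 were genes for thioredoxin domain-containing protein 5 and a single PR domain zinc finger protein 1 gene, so they are not separate proteins. The group held 0.0284% of counts in library 1, 0.0245% in library 2 and 0.00464% in library 3. Thioredoxin domain-containing protein 5 (GSONMG00050284001), a folding enzyme of the endoplasmic reticulum, had 166, 123 and 17.2 CPM, and a second gene for it (GSONMG00050282001) had 37.3, 24.7 and 3.70 CPM. Blimp-1, encoded by the PR domain zinc finger protein 1 genes, drives the plasma cell program, and its gene with most counts (GSONMG00011799001) had 12.6, 17.4 and 2.88 CPM. All 8 Blimp-1 genes summed to 47.0, 57.5 and 5.34 CPM. The fifth detected gene, syndecan-1-like (GSONMG00068106001), a surface proteoglycan of mammalian plasma cells, had 14.3, 16.7 and 17.0 CPM and did not share the low value of library 3.

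The secretory pathway, which folds and moves antibody and other exported proteins, held 1.01% of counts in library 1, 1.03% in library 2 and 0.671% in library 3. The chaperone 78 kDa glucose-regulated protein (GSONMG00068455001), also called BiP, which binds immunoglobulin heavy chains, had 1894, 2529 and 1596 CPM. A second copy (GSONMG00015093001) had 617, 799 and 529.7 CPM. The 94 kD glucose-regulated protein (GSONMG00046981001) had 1378, 1222 and 847 CPM, and the protein disulfide isomerase A6-like gene (GSONMG00068094001) had 480.4, 442 and 183 CPM. All of these were lowest in library 3, as were 63 of the 100 detected members among 125 genes, against 31% of all detected genes. Light chains, Blimp-1 and the secretory genes were thus low in the same library. Whether this library held fewer plasma cells was not tested.

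Of the genes of antigen presentation, those for the invariant chain were among the genes with most counts in these cells. The invariant chain, which escorts MHC class II molecules to the compartments where they load peptide, was encoded by the pair of genes with most counts in the group. The first, S25-7 (GSONMG00016916001), stood at rank 29 with 1855, 3244 and 2455 CPM, and the second, INVX (GSONMG00017439001), had 1451, 2035 and 1406 CPM. The few genes described as MHC class II chains, named for their role, were far lower. A beta chain gene (GSONMG00054932001) had 148, 143 and 208 CPM, at rank 784. An alpha chain gene (GSONMG00024492001) had 9.20, 4.66 and 1.89 CPM. The beta chain genes GSONMG00024490001 and GSONMG00013511001 averaged 4.32 and 4.22 CPM and failed the rule for detection. Class II mRNA beyond the genes so described was not analysed here, so its full level without antigen is not known. An MHC class I gene of the BL3-6 type (GSONMG00020623001) had 992, 1354 and 256 CPM, while the class I gene of the F10 type (GSONMG00071588001) had 597, 476 and 543 CPM. Another class I-related gene (GSONMG00024964001) was nearly confined to library 3, with 6.28, 4.55 and 445 CPM, and a further BL3-6 gene (GSONMG00001308001) had 2.81, 4.88 and 125 CPM. Both are named for this pattern. Of the 55 genes of the group 38 were detected and 13 of these differed by at least 4 times, against 6.63% of all detected genes, so the group was uneven even though its sum, 0.684%, 0.924% and 0.688%, was not. MHC class I genes differ between individuals in many vertebrates, and which allele or copy a read was counted for is not resolved here.

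Lysosomal proteases and proton pumps, which cut antigen and acidify the compartment, had 55 of 88 genes detected and held 0.204% ± 0.0355. Procathepsin L (GSONMG00063049001) had 132, 264 and 196 CPM, cathepsin S (GSONMG00052814001), the protease that trims the invariant chain in mammals, had 154, 169.9 and 71.5 CPM, and a subunit of the proton pump (GSONMG00024573001) had 176, 123 and 149 CPM. The cathepsin K-like gene (GSONMG00052815001) was uneven, with 27.6 CPM in library 1 against 476 and 216 CPM in libraries 2 and 3.

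Of 41 genes for costimulation, the exchange of signals with T cells, 22 were detected, and the group held 0.136% ± 0.027 of counts. CD40 (GSONMG00012579001) had 339, 651 and 420.4 CPM, at rank 298. It was the leading member among 16 genes described as TNF receptor superfamily member 5, of which 9 were detected. A SLAM-like gene (GSONMG00018315001), a self-binding receptor of lymphocytes, had 396, 570.2 and 423 CPM. The maturation marker CD83 (GSONMG00012647001) had 45.9, 66.4 and 56.7 CPM and a CD276-like gene (GSONMG00061700001) 61.4, 73.1 and 92.7 CPM. CD86 (GSONMG00002598001) had 20.8, 8.02 and 12.3 CPM and, likewise a ligand of CD28, a CD80-like gene (GSONMG00053379001) 3.90, 3.79 and 2.47 CPM. The single gene described as CD40 ligand, a T cell product, had at most 0.217 CPM, which is under the floor of 3 counts.

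Several sensors of microbes were detected. Of 44 genes in the group of toll-like receptors and adaptors 29 were detected, at a median of 26.3 CPM and a summed share of 0.132% ± 0.0181. Without a low-quality entry for toll-like receptor 4 (GSONMG00061987001), which had no count, 28 of them were described as toll-like receptors. Of these 28, 16 were detected, where 46.3% of all genes were. The group also takes in genes described as UNC93-like protein MFSD11 and unc-93 homolog A, which were matched by name and are not toll-like receptors. The receptor gene with most counts was a toll-like receptor 13 gene (GSONMG00041579001) with 323, 277 and 454 CPM. TLR13 recognises bacterial ribosomal RNA in mice. A second gene of that name (GSONMG00021584001) had 113, 137 and 154 CPM, and toll-like receptor 12 (GSONMG00041203001) had 132, 73.1 and 98.8 CPM. The kinase IRAK4 (GSONMG00045354001), which relays toll-like receptor signals, had 72.9, 136 and 74.3 CPM. Receptors for nucleic acids differed in how steady they were. TLR9 (GSONMG00026650001), for unmethylated DNA, was steady with 34.9, 54.3 and 44.9 CPM, but TLR7 (GSONMG00027559001) and a TLR8 gene (GSONMG00027558001), for single-stranded RNA, had 146, 37.7 and 15.2 CPM and 145, 18.3 and 4.77 CPM. TLR3 (GSONMG00004544001), for double-stranded RNA, had 103, 2.6 and 11.4 CPM. TLR7, this TLR8 gene and TLR3 were all highest in library 1. Another TLR8 gene (GSONMG00067760001), named for comparison, was less uneven with 40.1, 23.1 and 36.3 CPM.

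NOD-like and RIG-I-like receptors, which sense microbes inside the cell, formed a large family in this annotation. Of 155 genes 118 were detected, with 0.384% ± 0.0414 of counts. The gene with most counts, an NLRC3-like gene (GSONMG00037095001), had 261, 175 and 157 CPM. DHX58 (GSONMG00027343001), a helicase that regulates sensing of viral RNA, had 253, 104 and 189.6 CPM. Of the 118, 66 were highest in library 1, against 32.2% of all detected genes.

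Some receptors for migration were expressed without antigen. The CCR9-like gene (GSONMG00011241001), a receptor that in mammals directs lymphocytes to the gut, had 349.8, 616 and 1075 CPM. CXCR4 (GSONMG00075098001), which holds B cells in lymphoid tissue, had 221, 806 and 533 CPM, and GPR183 (GSONMG00076483001), an oxysterol receptor that positions B cells in mouse spleen, had 228, 331 and 457 CPM. These 3 were lowest in library 1, and the XCR1-like receptor gene (GSONMG00010891001), with 249, 283 and 175 CPM, was not. CCR7 (GSONMG00017247001) had 46.3, 34.6 and 26.1 CPM. Of the 51 genes in this group 18 were detected (35.3%, against 46.3% over all genes). The adhesion receptors with most counts were integrin beta-7 (GSONMG00056855001), with 696, 1379 and 1024 CPM, and integrin beta-2 (GSONMG00075139001), with 805, 1018 and 855 CPM. Fermitin 3 (GSONMG00058960001), which activates integrins in blood cells, had 596, 943 and 747 CPM.

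Of 37 chemokine genes 6 were detected, and 14 had no count in any library. CCL4 (GSONMG00080018001), a chemokine that attracts leukocytes, had most counts of them with 363, 948 and 503 CPM at rank 228. The CXCL11-1-like gene (GSONMG00058131001), a chemokine induced by interferon in mammals, had 61.8, 19.0 and 7.56 CPM. For interleukins and growth factors, 10 of 45 genes were detected and 12 had no count. TGF-beta 1 (GSONMG00041090001), which restrains lymphocytes, had 45, 97.3 and 58.7 CPM. Interleukin 18 (GSONMG00023409001) had 31.5, 41.1 and 43.9 CPM, a pair of interleukin 15 genes (GSONMG00030480001 and GSONMG00034439001) averaged 12.7 ± 10.3 and 12.4 ± 6.61 CPM, and interleukin 6 (GSONMG00015850001) had 4.55, 9.10 and 7.73 CPM. Of 20 TNF superfamily ligands 3 were detected. They were BAFF (GSONMG00026860001), a survival factor for B cells, with 82.2, 109.6 and 39.0 CPM, TWEAK-like (GSONMG00066797001) with 14.0 ± 3.23 CPM, and a TNF gene (GSONMG00010221001) with 11 ± 3.83 CPM.

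Among cytokine receptors, 37 of 106 genes were detected. An IL-12 receptor beta-2-like gene (GSONMG00076169001) had 489, 546 and 351 CPM. The common gamma chain (GSONMG00069157001), shared by the receptors of several interleukins, was steady at 263, 283 and 299.7 CPM. A TGF-beta receptor type-2 gene (GSONMG00080363001) had 53.0, 27.1 and 59.9 CPM. JAK2 (GSONMG00014363001) and JAK1 (GSONMG00082623001), kinases that act below these receptors, had 221 ± 41.9 and 171 ± 49.3 CPM. TNF receptors and TRAF adaptors had 44 of 80 genes detected, led after CD40 by TNF receptor superfamily member 21 (GSONMG00065748001) with 182, 107 and 166 CPM and member 6, the death receptor Fas (GSONMG00082555001), with 84.3, 74.0 and 59.0 CPM.

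Of 183 genes for phagocytosis and complement 46 were detected and 59 had no count, and the group held 0.287% ± 0.0113. Besides integrin beta-2, part of a complement receptor, the leading genes were the heavy chain of cytochrome b-245 (GSONMG00056452001), the catalytic part of the NADPH oxidase, with 551, 613 and 639.5 CPM, and a lysozyme g gene (GSONMG00077369001), an enzyme against bacterial walls, with 684, 475 and 581 CPM. A complement receptor-like gene (GSONMG00062775001) had 78.5, 147 and 137 CPM. These genes are also expressed by myeloid cells. The cytoskeleton had 159 of 267 genes detected and a share of 1.07% ± 0.0627, and 953, 1079 and 1088 CPM for cytoplasmic actin 1 (GSONMG00021894001). Plastin-2 (GSONMG00053047001), the actin-bundling protein of leukocytes, had 619 ± 119.6 CPM, gelsolin (GSONMG00013316001) 432 ± 44.4 CPM, and moesin (GSONMG00081106001), which ties actin to the membrane, 401 ± 49.8 CPM.

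In energy metabolism, a larger part of the listed genes was detected for respiration than for glycolysis, while the detected members had similar medians. For the respiratory chain and ATP synthase, 132 of 156 genes were detected, at a median of 21.9 CPM, and the group held 0.522% ± 0.0779 of counts. Of these 132, 94 were lowest in library 3, against 31% of all detected genes. The beta subunit of ATP synthase had a gene (GSONMG00055011001) with 290.3, 271 and 263 CPM and a second (GSONMG00000416001) with 296, 232 and 221 CPM, and the alpha subunit had 268, 240.4 and 225 CPM (GSONMG00033840001). Glycolysis and glucose uptake had 43 of 116 genes detected (37.1%, against 46.3% over all genes) and held 0.235% ± 0.0391. The median of these 43 was 22.2 CPM, and 31 of the 116 genes had no count in any library. Lactate dehydrogenase B (GSONMG00002192001) had 323, 294 and 242 CPM, GAPDH (GSONMG00011170001) 280.4, 221 and 149 CPM, enolase (GSONMG00016130001) 216, 104 and 129 CPM and phosphoglycerate kinase (GSONMG00071424001) 147, 145 and 157 CPM. Phosphoglycerate kinase was thus steady, while GAPDH and lactate dehydrogenase B were lowest in library 3.

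Of 132 genes for cell cycle and DNA replication 79 were detected, at a median of 8.05 CPM, and the group held 0.152% ± 0.0416. PCNA (GSONMG00067707001), the sliding clamp of replication, had 96.7, 134 and 145 CPM. Topoisomerase 2-alpha (GSONMG00078319001), a gene of dividing cells, had 69.2, 83.0 and 5.34 CPM, and the proliferation marker Ki-67 (GSONMG00002094001) had 30.9, 33.8 and 3.95 CPM, so both were lowest in library 3, and PCNA was not. Topoisomerase 2-alpha and Ki-67 are named for their role. Of the 79 detected genes, 49 were highest in library 2 (32% of all detected genes) and 47 were lowest in library 3 (31%). Mcl-1, which protects lymphocytes from apoptosis, had a pair of genes (GSONMG00063150001 and GSONMG00052810001) with 553, 1373 and 1175 CPM and 657, 1224 and 767 CPM. The Bcl-2-like protein 2 gene (GSONMG00052850001), another inhibitor of apoptosis, had 539.7, 346 and 295 CPM.

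Factors linked to quiescence had 61 of 92 genes detected, at a median of 19.4 CPM. Those named here were lower in library 1 than in libraries 2 and 3. KLF2, which keeps lymphocytes quiescent, had a pair of genes, of which the first (GSONMG00072563001) had 727, 1844 and 1502 CPM and the second (GSONMG00014489001) 442, 1558 and 1027 CPM. KLF6 (GSONMG00008629001) had 157, 938 and 1330.1 CPM, and the antiproliferative gene BTG2 (GSONMG00081756001) 235, 509.7 and 331 CPM. The group held 0.322% of counts in library 1, 0.843% in library 2 and 0.693% in library 3, and 35 of its 61 detected genes were lowest in library 1, against 28.5% of all detected genes. KLF6 and BTG2 are also known as early response genes.

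Immediate early factors were lower in library 1 than in the others. This group of transcription factors, among them Jun, JunD and IER2, is induced within minutes of a stimulus or of stress without new protein synthesis. Its 55 genes, 39 of them detected at a median of 83.8 CPM, held 0.608% of counts in library 1, 1.83% in library 2 and 1.82% in library 3. The mean was 1.42% ± 0.705 and without library 1 it was 1.83%. Beside the AP-1 gene of rank 12, JunD (GSONMG00048914001) had 879, 2308 and 3074 CPM, IER2 (GSONMG00042583001) 1222, 2367 and 2639 CPM and an AP-1-like gene (GSONMG00023961001) 539, 2803 and 1750.1 CPM. Of the 39 detected genes 26 were lowest in library 1, against 28.5% of all detected genes, and 1 was highest there.

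The NF-kB pathway showed the same library as lowest. It held 0.296%, 0.61% and 0.649% of counts in libraries 1, 2 and 3, and 30 of 47 detected genes, out of 53 in the table, were lowest in library 1, against 28.5% of all detected genes. The inhibitor I-kappa-B-alpha, which is also a target of NF-kB and ends its action, had a gene (GSONMG00028099001) with 446, 1949 and 1677 CPM and a second (GSONMG00016793001) with 114, 749 and 473 CPM. The p100 subunit (GSONMG00016681001) had 361, 519 and 629.8 CPM.

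Genes of the antiviral interferon response were, in the other direction, highest in library 1. Interferons induce many effectors, such as Mx proteins, HERC ubiquitin ligases and, in trout, the VHSV-induced proteins, named after a rhabdovirus. All 7 genes described as VHSV-induced proteins were highest in library 1 and lowest in library 3, with sums of 2704, 254 and 124 CPM. The 16 genes for HERC3 and HERC6 summed to 2739.9 CPM in library 1, 75.5 CPM in library 2 and 55.2 CPM in library 3, and 13 of them were highest in library 1. The 14 Mx genes summed to 262, 19.3 and 14.9 CPM.

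A list of 139 antiviral effectors, made after these levels had been seen, sums up the pattern without testing it. It held 1.73% of counts in library 1, 0.407% in library 2 and 0.199% in library 3, a mean of 0.78% ± 0.833 and, without library 1, of 0.303%. Of its 82 detected genes 64 were highest in library 1 (32.2% of all detected genes) and 55 were lowest in library 3 (31%). A second group, interferon regulatory factors and interferon-induced genes, had 69 of 119 genes detected and held 0.66%, 0.619% and 0.287%. Of these 69 genes 37 were highest in library 1 (32.2% of all detected genes) and 44 were lowest in library 3 (31%). Within this group, IRF1 had a pair of genes (GSONMG00026159001 and GSONMG00045786001) that were highest in library 2. They had 361, 934 and 236 CPM and 322, 746 and 139.6 CPM. The interferon pattern of library 1 was thus not shared by every gene that interferon can induce.

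**Figure D4:**
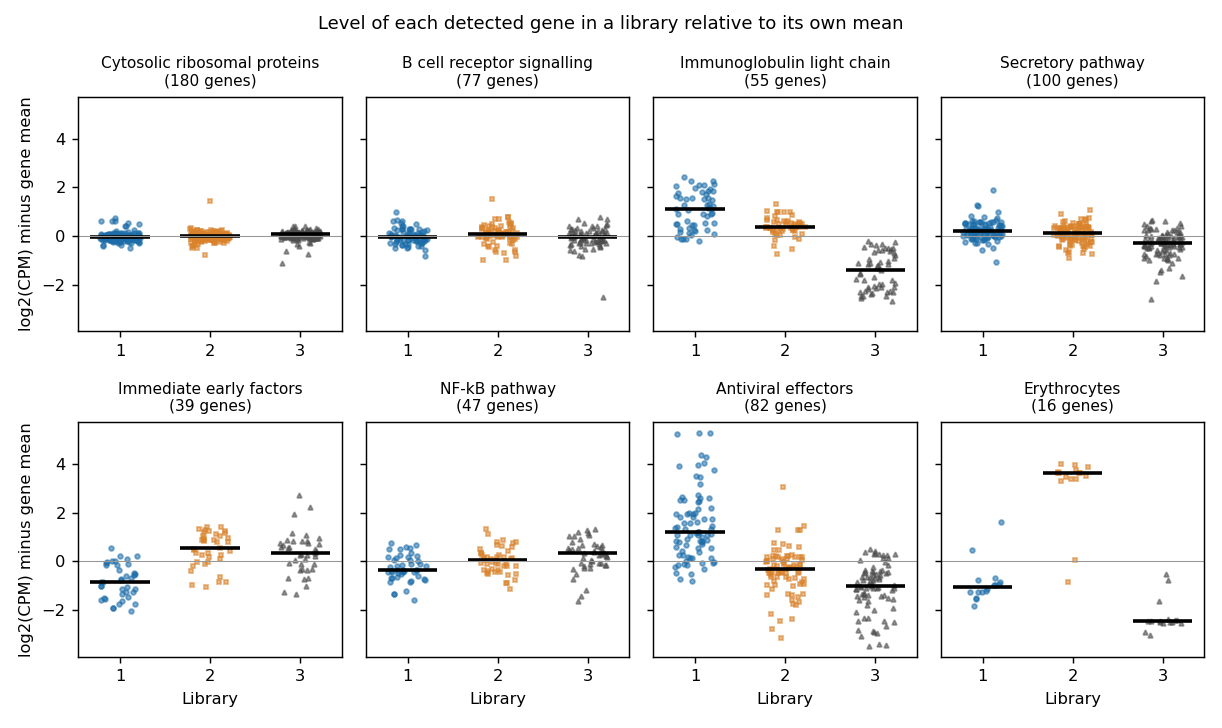
Level of each detected gene in a library relative to its own mean over the 3 libraries, as a difference of log2 CPM, for 8 groups of genes; each point is a gene and each bar the median. Ribosomal proteins and receptor signalling stay near 0, light chains have medians of 1.11, 0.35 and −1.42, immediate early factors −0.84, 0.54 and 0.34, antiviral effectors 1.20, −0.32 and −1.0, and erythrocyte genes −1.05, 3.62 and −2.45 in libraries 1, 2 and 3.

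Markers of several other cells were present. Those of erythrocytes, thrombocytes, T and NK cells and neutrophils each had their largest share in library 2. Of 44 genes on the erythrocyte list 16 were detected, and the list held 0.0333% of counts in library 1, 0.718% in library 2 and 0.0124% in library 3, or 0.0228% on average without library 2. A hemoglobin beta gene (GSONMG00009494001) had 41.8, 1152 and 16.4 CPM, another (GSONMG00052298001) 43.8, 872 and 15.3 CPM and a hemoglobin alpha gene (GSONMG00009493001) 25, 768 and 9.95 CPM. The words of the list missed the alpha-globin I gene (GSONMG00008805001), with 58.7, 1340 and 23.4 CPM, so its shares are too low. With that gene, 34 hemoglobin genes summed to 328, 8372 and 122 CPM in libraries 1, 2 and 3. Thrombocyte markers held 0.0120%, 0.0416% and 0.0167%, with 13 of 25 genes detected and 12 of these highest in library 2, where 32% of all detected genes were highest. Integrin alpha-IIb (GSONMG00067899001), the fibrinogen receptor of thrombocytes, had 15.8, 77.6 and 15.1 CPM, and a pair of coagulation factor XIII genes (GSONMG00007093001 and GSONMG00011732001) had 33.9, 78.1 and 23.1 CPM and 23.5, 46.3 and 22.2 CPM.

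T and NK cell markers held 0.0300%, 0.0413% and 0.0355%, with 7 of 39 genes detected. Most of that came from the B- and T-lymphocyte attenuator gene (GSONMG00042084001), which B cells express too, with 217, 215 and 293 CPM. Perforin-1 (GSONMG00044632001) had 18.2, 17.7 and 29.5 CPM, a CD28-like gene (GSONMG00053086001) 9.85, 7.26 and 16.6 CPM, and the 8 genes for CD3, CD4 and CD8 together 16.0, 62.5 and 3.86 CPM. For monocytes and macrophages 8 of 40 genes were detected and 0.0833%, 0.0571% and 0.0541% of counts held, of which macrosialin (GSONMG00044153001), a lysosomal protein, had 719.8, 461 and 464 CPM. The mannose receptor (GSONMG00021955001) had 49.5, 46.9 and 36.3 CPM and macrophage-expressed gene 1 (GSONMG00055802001) 12.3, 25.6 and 0.987 CPM. Neutrophil markers held at most 0.00996% of counts, in library 2, and at least 0.00153%, in library 3, with MMP25 (GSONMG00006981001) at 6.50, 37.6 and 1.56 CPM, MMP9 (GSONMG00062737001) at 8.99, 22 and 2.30 CPM and the receptor of granulocyte colony-stimulating factor (GSONMG00047802001) at 19.8, 8.89 and 2.63 CPM.

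Of 368 genes for endothelium and stroma 32 were detected and 202 had no count, with 0.0286%, 0.0523% and 0.0537% of counts. The leading genes were collagen alpha-1(XIV) genes, 6 of which are in the table. They summed to 1.08 CPM in library 1 against 169 and 242 CPM in libraries 2 and 3, with the first of them (GSONMG00071555001) at 0.650, 71.5 and 98.3 CPM and the second (GSONMG00071554001) at 0.108, 41.2 and 88.7 CPM. The laminin gamma-1-like gene (GSONMG00079800001) had 25.5, 20.8 and 38.1 CPM and did not follow them. Muscle markers held 0.0788% ± 0.00556, nearly all of it from cardiac alpha actin genes, of which the first 3 (GSONMG00074738001, GSONMG00076552001 and GSONMG00050453001) had 346 ± 19.3, 254 ± 45.8 and 28.3 ± 11.1 CPM. Actins are alike in sequence, so reads of single actin genes are uncertain. How much RNA of other cells contributed to the results above was not tested.

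Most genes were less steady than counting error alone would make them. The median coefficient of variation (CV, SD over mean) of the 21557 detected genes was 0.257, while counting error alone would give a median of 0.0885. The median ratio of the highest to the lowest library was 1.65, 68.0% of genes stayed within 2 times and 6.63% (1429 genes) differed by at least 4 times. Of these 1429 genes 634 (2.94% of all detected) were highest in library 1, 440 (2.04%) in library 2 and 355 (1.65%) in library 3. Library 1 was the lowest for 281 (1.3%), library 2 for 499 (2.31%) and library 3 for 649 (3.01%). The common biological coefficient of variation that edgeR estimated from the 3 libraries was 0.376. Across genes, Pearson's r of log2(CPM + 1) was 0.908 between libraries 1 and 2, 0.905 between 1 and 3 and 0.901 between 2 and 3 (Spearman 0.893, 0.897 and 0.874). Genes are not independent, and these values only describe the libraries.

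The spread was above the counting error at every level and did not fall evenly with the level. The 1923 genes of 1 to 3 CPM had a median CV of 0.323, where counting error gives 0.207. At 30 to 100 CPM the median was 0.202 against 0.0465 from counting, at 100 to 300 CPM it was 0.223 against 0.0261, and over 1000 CPM, in 149 genes, 0.123 against 0.00794. The share of genes that differed by at least 4 times was 5.48% at 30 to 100 CPM, 12.1% at 100 to 300 CPM and 9.4% over 1000 CPM. Groups differed as well. The median CV was 0.0919 for detected ribosomal proteins, 0.163 for translation factors and 0.202 for receptor signalling. For antigen presentation it was 0.502, for immediate early factors 0.64 and for light chains 0.715.

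**Figure D5:**
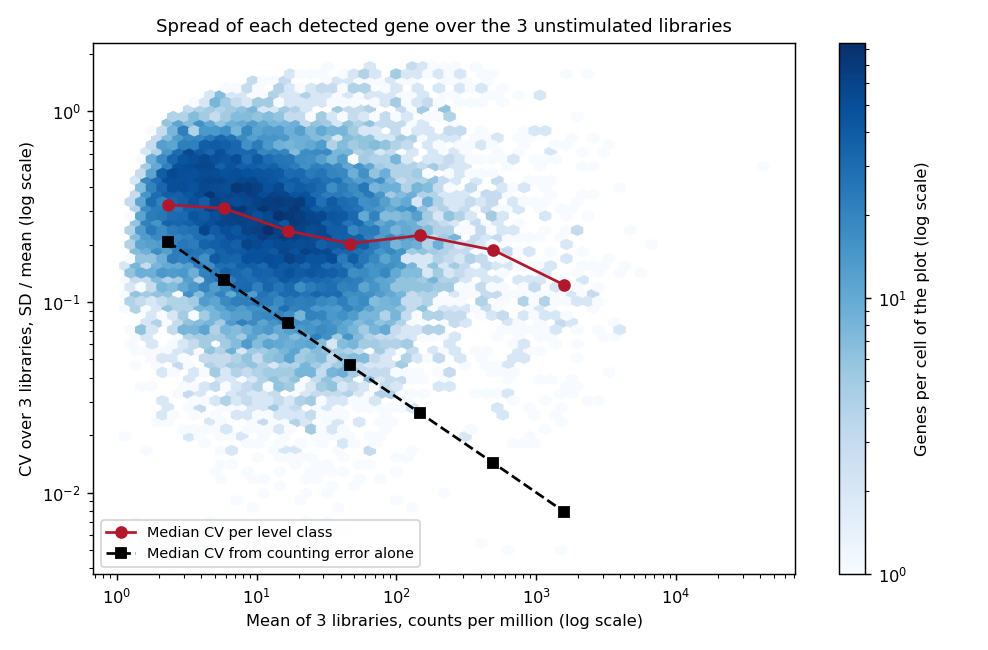
CV over the 3 libraries against mean level (both log axes) for the 21557 detected genes, with darker cells holding more genes; the red line is the median per class of level and the black dashed line the median that counting error alone would give. The median CV is 0.223 at 100 to 300 CPM and 0.123 in the class above 1000 CPM, where counting error alone would give 0.00794.

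Among 1277 described genes with a mean of at least 100 CPM, ribosomal protein S13 (GSONMG00017406001) had the smallest CV, with 672, 672 and 671 CPM, closer than counting error would place them. Next came ribosomal proteins L22-like (GSONMG00081416001) with 139 ± 0.658 CPM and S12 (GSONMG00002355001) with 1430.5 ± 7.01 CPM. The ubiquitin ligase HUWE1 (GSONMG00074466001) had 383 ± 2.11 CPM and the RNA-binding protein hnRNP A0 (GSONMG00058076001) 126 ± 1.03 CPM. Alpha-adducin (GSONMG00074530001), which caps actin at the membrane, had 224 ± 2.23 CPM, the nuclear pore protein TPR (GSONMG00021535001) 129.7 ± 1.99 CPM and adenylyl cyclase-associated protein 1 (GSONMG00049484001), an actin regulator, 361 ± 5.96 CPM. All 8 were picked for their small CV, and each was below what counting error gives.

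The most variable genes were, with 1 exception, high in library 1 alone. Of the 12 described genes of at least 20 CPM with the largest CV, 11 were highest in library 1 and 8 were HERC ubiquitin ligases. The HERC3 gene with most counts (GSONMG00048731001) had 812 CPM in library 1 against 3.79 and 2.96 CPM in libraries 2 and 3, and the HERC6 gene of largest CV (GSONMG00038427001) had 262 CPM against 0.325 and 0.411 CPM. The others were HERC6 (GSONMG00055653001) with 135, 0 and 0.575 CPM, HERC3 (GSONMG00048727001) with 199.95, 0.650 and 0.411 CPM, HERC6 (GSONMG00052642001) with 380.0, 1.41 and 1.73 CPM, HERC3 (GSONMG00052624001) with 280.5, 1.41 and 0.987 CPM, HERC6 (GSONMG00048730001) with 398, 2.06 and 1.48 CPM, and HERC5-like (GSONMG00052876001) with 162, 1.30 and 0.658 CPM.

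The remaining 4 of the 12 included an interferon-induced gene and an interferon receptor gene. Interferon-induced protein 44-like (GSONMG00002732001) had 311, 2.82 and 0.411 CPM, and the interferon alpha/beta receptor 2 gene (GSONMG00048268001) 130.02, 0 and 1.56 CPM. A 5-hydroxytryptamine receptor 3A-like gene (GSONMG00056511001), named after a serotonin-gated channel, had 213, 0.325 and 1.32 CPM. The exception was fatty acid binding protein 1-B.1-like (GSONMG00006667001), a lipid carrier of gut and liver, with no count in libraries 1 and 2 and 67.3 CPM in library 3. Chosen for its size, the sacsin-like gene (GSONMG00056389001) belongs with these, with 6777, 103 and 109.8 CPM. It was among the genes with most counts in library 1 only.

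Rainbow trout went through a whole-genome duplication, and many of its genes exist as copies. Among genes of the lists that share a description, 487 sets of 2 to 4 copies had a detected leading copy, and 348 of them kept 1 order of levels in all 3 libraries. In 174 sets the highest copy was also at least 4 times the lowest in each library. Of the 283 sets that are pairs, 229 (80.9%) kept their order. Both copies were detected in 225 pairs, and 173 of those kept their order. An undetected copy is low by definition, so pairs with one can hardly change order. Which sets arose in that duplication was not tested. Copies may differ in length and may share reads, so the ratios are of reads.

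The sets named next were taken, by their counts, from the 174 that kept 1 order and were at least 4 times apart. They do not stand for all copies. The ribosomal protein L8 genes GSONMG00030696001 and GSONMG00060254001, for example, were close and changed order. The first had 2142, 1957 and 2397 CPM and the second 1791, 1838 and 2467 CPM in libraries 1, 2 and 3. HSP90 beta had 1 copy (GSONMG00028101001) with the levels given above and a second (GSONMG00079391001) with 583, 507 and 607 CPM, a ratio of 9.09, 9.41 and 10.4 in libraries 1, 2 and 3. The 4 genes for ribosomal protein S3-like had 3216, 1243, 281 and 16.0 CPM on average. For L5-like the 3 copies (the first GSONMG00060282001) averaged 2283, 119.7 and 9.02 CPM, and for L10 (the first GSONMG00027608001) 2001, 269 and 212 CPM. For P1-like (GSONMG00049322001) the averages were 1972, 252 and 6.18 CPM, and for S10 (GSONMG00073116001) 1666, 729.9 and 388 CPM.

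A pair of immediate early sets kept the order of their copies while the levels moved. The 4 JunD genes had 879, 310.05, 131 and 20.03 CPM in library 1, 2308, 829.9, 227 and 150.08 CPM in library 2 and 3074, 1581, 437 and 182 CPM in library 3, in the same order. The 3 AP-1-like genes (GSONMG00023961001, GSONMG00023609001 and GSONMG00025151001) had 539, 26.5 and 12.2 CPM in library 1, 2803, 227 and 83.2 CPM in library 2 and 1750.1, 172 and 39.95 CPM in library 3, so the ratio of the first to the last was 44.1, 33.7 and 43.8. Other sets of this group did not keep their order, such as the pair of jun-B-like genes (GSONMG00077443001 and GSONMG00026273001), named for this, whose ratio was 0.812, 1.19 and 1.74 in libraries 1, 2 and 3.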

How the data were processed

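RNA of sorted IgM+ B cells from cultures kept for 24 h was made into stranded libraries by the authors, who mapped the reads with TopHat to the Genoscope trout genome and counted them per gene with SAMtools and HTSeq. The deposited values are raw counts per gene, and the same counts stand in all 3 deposited tables. For tool versions and for strand in counting, the sources used here give nothing. Other columns of these tables, made by the authors with DESeq, hold group means, fold changes and p-values and were not used, nor were the counts of stimulated cells. Names are the best protein match listed in the tables. A RefSeq gene table matched 0 of the identifiers, so lengths, positions and sequences are not given.

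CPM are counts over the library total (Python 3.11.15, pandas 2.3.3). TMM factors and the biological coefficient of variation came from edgeR 4.0.16 with an intercept only, and size factors from DESeq2 1.42.0 (R 4.3.3); these steps were tested on simulated data. The CV expected from counting is the Poisson error of the 3 counts. Figures were drawn with matplotlib 3.10.9. Genes were named by rule: the 20 described genes with most counts, up to 4 detected genes per group and 3 per marker list, the 8 of smallest CV (mean of at least 100 CPM), the 12 of largest CV (mean of at least 20 CPM) and up to 8 sets of copies. The sets of copies were taken from those in 1 order and at least 4 times apart in each library. Other genes are named for their role. A few genes that the rule selects are not reported here. Members, lists and the rule were chosen with earlier results of these data known. Duplicated and overlapping genes may share reads.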

Additional observations from a re-analysis of the deposited data

How the results depend on the processing

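No paired analysis was possible because a single group is described, so no fit with the replicate number as a block exists. Ranking by reads per kilobase of coding length was not run, since no length could be matched. Of 333 summary values under alternatives 326 kept within 1 SD or 1.5 times. The 7 that moved were the median CV, 0.411 with no filter on low counts against 0.257, and, with library totals taken without the 10 genes of most counts, the shares of phagocytosis and complement (0.312%), integrins and adhesion (0.619%), ribosomal proteins (21.004%), cytoskeleton (1.17%), muscle markers (0.0858%) and IgM B cell markers (0.511%). The number of detected genes was 23650 at 0.5 CPM, 14395 at 5 CPM, 30380 with at least 5 reads in any library, and 22138 to 23003 with 1 library left out. The common biological coefficient of variation was 0.361 to 0.386 with 1 library left out and 0.554 without a filter. Of 182 genes compared under 6 alternatives each, 26 values moved by at least 1 SD, all with the totals without the 10 genes of most counts. The counts of detected group members highest or lowest in a library that the report prints changed by less than 1.5 times under 3 other scalings, while smaller counts moved more, such as the receptor complex genes highest in library 2, which were 2, and 4 with DESeq2 size factors. With 3 libraries of 1 group, differences between libraries have no replicate.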
